A study of Mus musculus with 6 samples.

Results

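The transcripts of 10 genes of the Nrf2 antioxidant pathway were followed in a mouse tumor line and in a mutant derived from it. The genes were chosen by symbol (Nfe2l2, Keap1, Nqo1, Hmox1, Gclc, Gclm, Srxn1, Txnrd1, Gsr and G6pdx), and all 10 were found among the 24346 gene symbols measured in each sample. The parental cells were CT26.mMR1, the mouse colorectal tumor line CT26 made to overexpress mouse MR1 by retroviral transduction. MR1 is the molecule that presents metabolite antigens to mucosal-associated invariant T (MAIT) cells. M8 was obtained from the parental cells by mutagenesis with N-ethyl-N-nitrosourea (ENU), so both lines carry the MR1 transgene. The sample titles give both lines the designation cl9, which the sources used here do not explain. M8 was cloned by limiting dilution and picked in a screen because it activated MAIT reporter cells more and had more surface MR1. A difference between the lines therefore compares 1 mutant clone with its parent and cannot be told apart from variation between clones. RNA was sequenced from 3 replicates of each line. Apart from the ENU in the history of M8, no treatment is described that separated the groups. The study describes the replicates as biological, while the labels do not say how the cultures were separated. The p-values below set a difference between the lines against the spread between replicates of a line, and cover no variation between clones.

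Nrf2, encoded by Nfe2l2, is a transcription factor that is held at low levels by Keap1, an adaptor that presents it to a Cul3 ubiquitin ligase. Electrophiles and oxidants modify Keap1, after which Nrf2 accumulates, pairs with small Maf proteins and binds antioxidant response elements (AREs) near its target genes. Its targets make glutathione, reduce thioredoxin and glutathione, supply NADPH and detoxify quinones and heme. Since Nrf2 is controlled largely at the protein level, transcript levels do not measure its activity.

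The ARE has a short core, and the promoters of members from different roles are shown to let a reader see where such a core lies. RefSeq sequences on build GRCm38.p6 were found for 7 of the 10 genes, and none was used for Hmox1, Gclc and Gsr. Each line below gives bases upstream of an annotated start, 5′ to 3′ on the strand of the gene, with motif matches in capitals. The stretches are chr9:21239333-21239582 (minus strand) for Keap1, chr3:122245307-122245486 (plus strand) for Gclm, chrX:74428881-74429130 (minus strand) for G6pdx and chr2:152105274-152105523 (plus strand) for Srxn1. Gclm has another annotated start upstream of the one used, and the bases between them are not printed.
Keap1: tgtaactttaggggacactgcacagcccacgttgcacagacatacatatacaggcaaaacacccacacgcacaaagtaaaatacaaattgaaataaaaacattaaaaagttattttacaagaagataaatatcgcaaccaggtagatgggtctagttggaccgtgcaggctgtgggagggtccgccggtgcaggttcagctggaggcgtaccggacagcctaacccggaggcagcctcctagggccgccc
Gclm: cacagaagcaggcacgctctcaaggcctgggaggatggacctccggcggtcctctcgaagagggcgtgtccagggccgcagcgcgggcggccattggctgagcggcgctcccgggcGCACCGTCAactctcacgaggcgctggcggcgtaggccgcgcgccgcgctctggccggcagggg
G6pdx: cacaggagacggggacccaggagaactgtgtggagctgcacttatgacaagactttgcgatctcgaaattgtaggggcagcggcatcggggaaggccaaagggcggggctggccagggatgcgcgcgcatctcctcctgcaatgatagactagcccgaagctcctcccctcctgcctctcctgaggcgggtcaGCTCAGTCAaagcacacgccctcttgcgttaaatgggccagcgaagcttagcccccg
Srxn1: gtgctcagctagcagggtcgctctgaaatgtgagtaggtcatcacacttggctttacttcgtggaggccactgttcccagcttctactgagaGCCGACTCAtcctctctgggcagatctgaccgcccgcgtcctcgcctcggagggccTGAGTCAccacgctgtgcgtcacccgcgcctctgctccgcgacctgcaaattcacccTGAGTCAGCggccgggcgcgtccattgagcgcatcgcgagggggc

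The motif searched for was the ARE core TGACNNNGC, on both strands, in windows from 250 bases before to 50 bases after a start. A match was present in 5 of the 9 windows of the 7 genes, 1 window in each of 5 genes, whereas 12.4% of the 32851 windows of all genes held one. It began 240 bases before the start in Nfe2l2, 134 before in Gclm, 92 before one of the 3 starts of Txnrd1, 57 before in G6pdx and 28 after in Srxn1. A variant of the core with G in place of C, TGAGNNNGC, occurred in 17.6% of all windows and among the members only in Srxn1, at 158 and 45 bases before the start. The shorter AP-1 site TGAGTCA, found in 5.2% of windows, lay at 102 and 45 bases before the Srxn1 start, and the latter overlaps the core variant at the same position. The windows of Keap1 and Nqo1 held none of these letters. A match is only a string of letters in this window, and the genes called higher or lower in M8 include both Gclm, with a match, and Keap1, without one.

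Expression is given as FPKM, fragments scaled to transcript length and to the mapped reads of the library, so that levels of different genes can be compared per length. Between 13747 and 14357 genes were above 0 in each sample. The parental libraries were deeper, at a relative depth of 0.948 to 1.07 against 0.772 to 0.875 in M8, with parental replicate 1 set to 1. Replicates of a line differed by a median coefficient of variation of 5.62% (parental) and 4.42% (M8). Colon markers did not characterise either line. Of 12 colon epithelial markers, 3 had a mean of at least 1 FPKM (Krt18, Krt20 and Lgals4), and Epcam, Cdh1, Cdx2 and Krt19 were at 0 in all 6 samples. The summed FPKM of the 12 was 41.8 to 57.7 in parental cells and 48.1 to 50.1 in M8. By the limma fit described below Krt20 (log2 fold change -0.50, adjusted p = 0.00438) and Lgals4 (-0.66, adjusted p = 0.00728) were called lower in M8. All 7 mesenchymal markers reached 1 FPKM. Their sum was 3933 to 4415 in parental cells and 4637 to 4867 in M8, which do not overlap, with S100a4 called higher (0.52, adjusted p = 0.000302) and Fn1 lower (-0.35, adjusted p = 0.000917). The part of these marker differences in the results below was not tested. No marker of white blood cells, endothelium or red blood cells had a mean of at least 1 FPKM.

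All members but Nqo1 had at least 17.1 FPKM in every sample. The summed FPKM of the 10 genes was 469 to 482 in the parental replicates and 474 to 490 in M8, and these ranges overlap. In parental cells Nfe2l2 and Txnrd1 were the highest members, at means of 98.7 and 96.4 FPKM, and their replicates overlapped. G6pdx (90.5), Hmox1 (63.6), Srxn1 (37.1) and Gclc (26.4 FPKM) followed, each apart from its neighbours. Keap1 and Gclm came next, at 21.7 and 21.3 FPKM, and could not be ranked against each other by their replicates. Gsr was lower at 17.4 FPKM, and Nqo1 was last at 0.697 FPKM. The order in M8 was the same down to Srxn1, and there Nfe2l2 lay apart from Txnrd1. Below it Keap1, Gclm and Gclc stood at 25.4, 25.1 and 24.3 FPKM, where each overlapped its neighbour, so the gap between Gclc and the other 2 in parental cells was not present in M8.

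**Figure D1:**
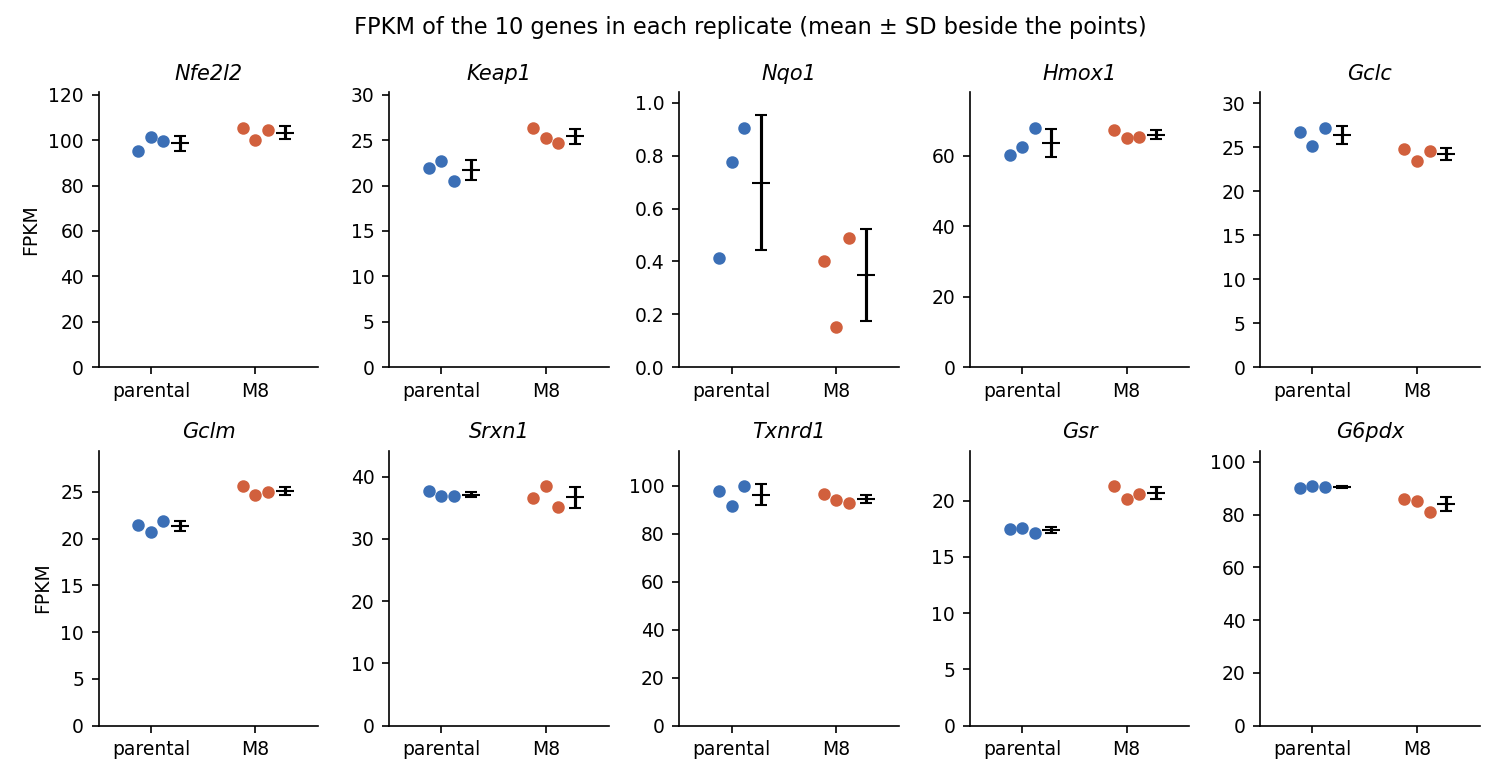
FPKM (vertical axes, each from 0 and with its own scale) of the 10 genes in the 3 parental (blue) and 3 M8 (orange) replicates, shown as points, with the mean and SD to their right. The M8 points lie above all parental points for Keap1, Gclm and Gsr, below them for Gclc and G6pdx, and overlap them for the other 5 genes.

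The lines were compared with limma on log2(FPKM + 1) over the 10597 genes with a mean of at least 1 FPKM. A gene was called higher or lower in M8 when its Benjamini-Hochberg adjusted p was below 0.1, whatever the size of the change. Fold changes below are M8 minus parental on this scale, which understates changes of low genes. Of the 10 members, 9 could be tested, and Nqo1 lay below the filter. Keap1, Gclm and Gsr were called higher, G6pdx was called lower, and 5 were not called. Over all genes tested, 21.2% were called higher and 16.5% lower, so that 3 and 1 of 9 members are near the shares of the whole table. The split over all genes, 2250 higher and 1745 lower, turned to 1658 and 2209 as TPM and to 1470 and 2769 with upper-quartile scaling. The median log2 fold change of the 9 members was 0.05, against 0.01 over all genes tested. The lines did not overlap for 5 members, with M8 above for 3 and below for 2, whereas M8 lay above or below without overlap for 24.8% and 20.4% of all genes tested. An exact permutation test of 3 samples against 3 cannot go below p = 0.1, the value it gave for these 5 members.

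Nfe2l2 itself, the regulator, was at 95.1, 101.6 and 99.5 FPKM in parental replicates 1 to 3 and at 105.4, 100.1 and 104.4 FPKM in M8. The lowest M8 value fell within the parental range. The means were 98.7 ± 3.31 and 103 ± 2.85 FPKM (SD, n = 3 each), and the log2 fold change of 0.06 (95% interval -0.03 to 0.16) was not called by limma (adjusted p = 0.275). The gene lies on chromosome 2 at 75675513-75704663 (GRCm38).

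Keap1, its inhibitor, rose in M8. Parental replicates held 21.9, 22.7 and 20.5 FPKM and M8 replicates 26.4, 25.2 and 24.7 FPKM. Every M8 value was above every parental one. The mean went from 21.7 ± 1.11 to 25.4 ± 0.849 FPKM, a difference of 17.1%, with a log2 fold change of 0.22 (0.10 to 0.34) and a limma adjusted p of 0.0130. Keap1 occupies chromosome 9 at 21229730-21239332, and the stretch printed above ends at its start.

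The ratio of Nfe2l2 to Keap1 within a sample is not changed by multiplying a sample by a single factor. It was 4.34, 4.47 and 4.85 in parental cells and 4.0, 3.97 and 4.23 in M8, so all M8 ratios were the lower ones. The mean ratio was 4.56 ± 0.264 against 4.07 ± 0.140, a log2 difference of -0.16 (exact permutation p = 0.1, the smallest possible).

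Glutamate-cysteine ligase catalyses the first and rate-limiting step of glutathione synthesis. It is made of a catalytic subunit, Gclc, and a modifier subunit, Gclm, that improves its kinetics. Of their transcripts Gclm was called higher in M8 and Gclc was not called. Gclm measured 21.4, 20.7 and 21.8 FPKM in parental cells and 25.6, 24.7 and 24.97 FPKM in M8, with all M8 replicates on top. It rose by 17.6%, from 21.3 ± 0.563 to 25.1 ± 0.448 FPKM, with a log2 fold change of 0.22 (0.13 to 0.32) and a limma adjusted p of 0.00591. Gclc measured 26.7, 25.2 and 27.2 FPKM in parental cells and 24.8, 23.5 and 24.6 FPKM in M8. All its M8 values were below the parental ones, by a narrow margin. The means of Gclc, 26.4 ± 1.06 and 24.3 ± 0.691 FPKM, gave a log2 fold change of -0.11 (-0.22 to -0.01), which just missed the threshold in limma (adjusted p = 0.101). The interval is for the single gene and the p is adjusted over all genes, which is why they can differ. Under 4 other scalings of the samples Gclc was called lower, with limma adjusted p from 0.0236 (upper-quartile scaling) to 0.0986 (median centring). It was also called with a mean of at least 5 FPKM (0.0912) and without parental replicate 2 (0.0765). Leaving out any other single replicate gave no call (0.151 to 0.276). Nor was Gclc called without the filter (0.201), without the eBayes trend (0.129) or with the replicate number as a block (0.103).

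The catalytic to modifier ratio, Gclc to Gclm, was 1.25, 1.21 and 1.25 in parental cells and 0.969, 0.951 and 0.983 in M8. The catalytic subunit was thus the more abundant transcript in each parental sample and the less abundant in each M8 sample. The mean ratio was 1.24 ± 0.0179 against 0.967 ± 0.0163, a log2 difference of -0.35 (exact permutation p = 0.1). All M8 values lay above the parental ones for Gclm and below them for Gclc. The separation of the ratios and this p therefore follow from those values and are not a further test. Gclc lies on chromosome 9 at 77754535-77794489. Gclm lies on chromosome 3 at 122245487-122267215 and overlaps a lncRNA, Gm46822, and a pseudogene, Gm6061, whose reads may not be fully separated from it.

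**Figure D2:**
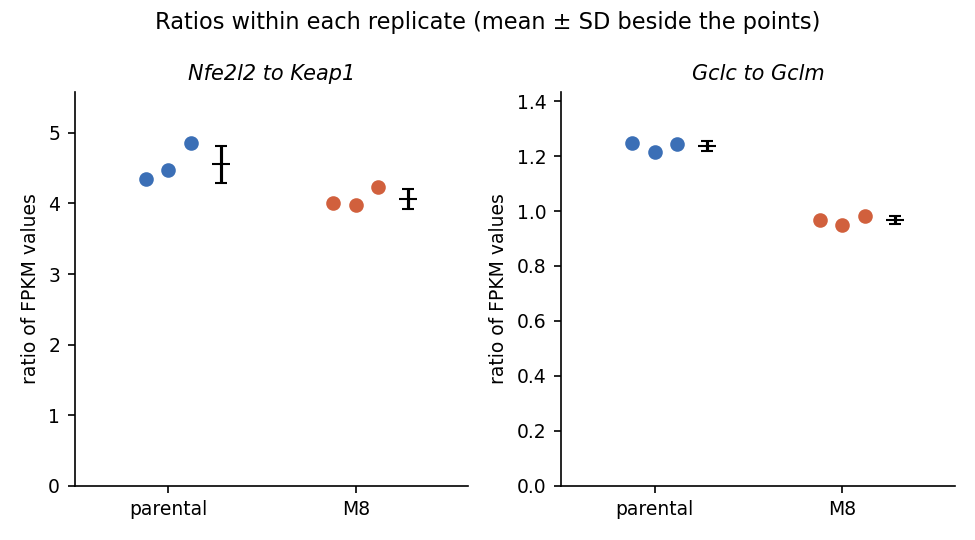
Ratio of FPKM values (vertical axes, from 0) of Nfe2l2 to Keap1 and of Gclc to Gclm within each replicate, with the mean and SD beside the points. All M8 ratios (orange) lie under all parental ratios (blue), and the Gclc to Gclm ratio passes from above 1 to below 1.

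Gsr, glutathione reductase, returns oxidised glutathione to its reduced form with NADPH. Its level was 17.5, 17.6 and 17.1 FPKM in parental cells and 21.3, 20.2 and 20.6 FPKM in M8, well apart. The rise was 19.0%, from 17.4 ± 0.249 to 20.7 ± 0.553 FPKM, with a log2 fold change of 0.24 (0.14 to 0.34) and a limma adjusted p of 0.00498. Gsr spans 33653238-33698162 on chromosome 8 and overlaps a snoRNA, Gm24727, and a pseudogene, Gm17803.

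In the thioredoxin branch neither member was called, except Txnrd1 as lower with quantile normalization (log2 fold change -0.12, limma adjusted p = 0.0751). Txnrd1, cytosolic thioredoxin reductase, stood at 97.8, 91.5 and 99.8 FPKM in parental cells and 96.4, 94.1 and 93.0 FPKM in M8. All M8 values fell inside the parental range. The means of 96.4 ± 4.33 and 94.5 ± 1.74 FPKM gave a log2 fold change of -0.03 (-0.12 to 0.07, limma adjusted p = 0.676). Srxn1, sulfiredoxin, which repairs overoxidised peroxiredoxins, was at 37.7, 36.8 and 36.9 FPKM in parental cells and 36.5, 38.4 and 35.1 FPKM in M8. The parental values lay inside the M8 range. The Srxn1 means were 37.1 ± 0.464 and 36.7 ± 1.67 FPKM, with a log2 fold change of -0.02 (-0.12 to 0.08, limma adjusted p = 0.797). Txnrd1 lies on chromosome 10 at 82833951-82897724, where it overlaps Gm38560 and Eid3, and Srxn1 on chromosome 2 at 152105524-152111376.

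G6pdx, glucose-6-phosphate dehydrogenase, makes NADPH in the first step of the pentose phosphate pathway. Parental replicates were tightly grouped at 90.3, 90.7 and 90.5 FPKM, and M8 replicates stood lower at 85.9, 85.0 and 81.1 FPKM. No M8 value reached the parental ones. The level fell by 7.19%, from 90.5 ± 0.236 to 84.0 ± 2.57 FPKM, with a log2 fold change of -0.11 (-0.19 to -0.02) and a limma adjusted p of 0.0667. This call was not firm, since leaving out any M8 replicate, or parental replicate 2 or 3, raised the adjusted p to between 0.1004 and 0.209. It was also lost with the replicate number as a block (0.105) and without the eBayes trend (0.117). Under the other scalings of the samples G6pdx stayed called lower, with log2 fold changes from -0.19 to -0.11 (limma adjusted p 0.00613 to 0.0685). G6pdx spans 74409483-74428880 on the X chromosome and overlaps Ikbkg. The copy G6pd2 was at 0 in 5 samples and at 0.0359 FPKM in M8 replicate 2.

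Hmox1, heme oxygenase 1, degrades heme and is a commonly used readout of oxidative stress. Its values were 60.3, 62.5 and 67.9 FPKM in parental cells and 67.3, 65.1 and 65.4 FPKM in M8. The highest single value was parental, and the groups overlapped. The means were 63.6 ± 3.90 and 66.0 ± 1.21 FPKM, with a log2 fold change of 0.05 (-0.06 to 0.16, limma adjusted p = 0.440). Hmox1 lies on chromosome 8 at 75093618-75100593.

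Nqo1, a quinone reductase commonly used to read out Nrf2 in other cells, was low in both lines. It was at 0.412, 0.775 and 0.905 FPKM in parental cells and 0.403, 0.152 and 0.487 FPKM in M8, and the lowest parental value lay inside the M8 range. Whole reads could be recovered from the steps in which low FPKM values change, and they numbered 14, 25 and 33 in parental replicates and 12, 4 and 14 in M8. Pooled, 72 parental reads correspond to 0.701 FPKM (0.549 to 0.883) and 30 M8 reads to 0.354 FPKM (0.239 to 0.506), with exact 95% Poisson intervals that cover counting error only. Over replicates the means were 0.697 ± 0.256 and 0.348 ± 0.174 FPKM, and an exact permutation test gave p = 0.2. In a limma fit without the filter the log2 fold change was -0.33 (-0.75 to 0.10, adjusted p = 0.404). Nqo1 lies on chromosome 8 at 107388225-107403205.

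**Figure D3:**
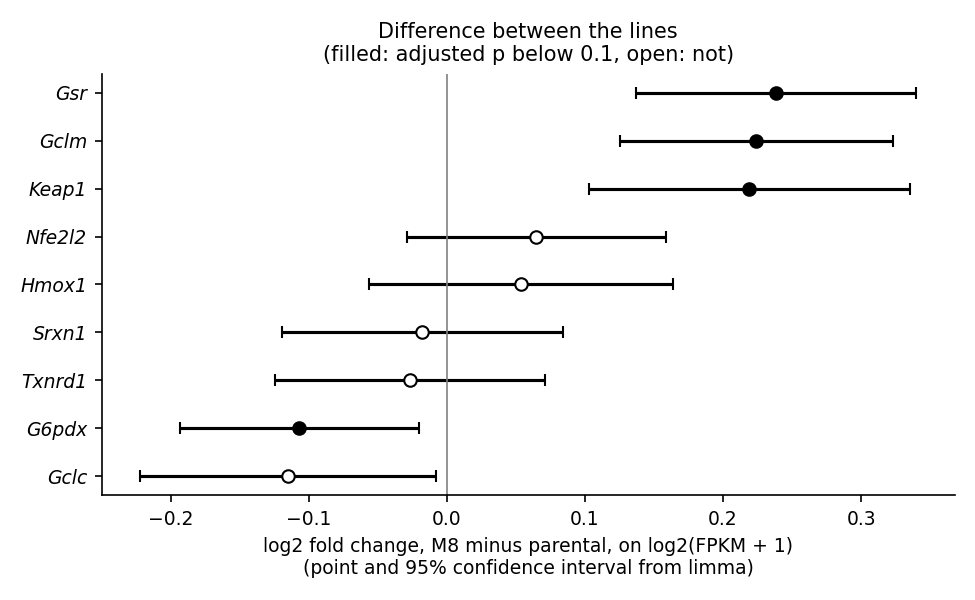
Log2 fold change of the 9 tested members, M8 minus parental on log2(FPKM + 1) (horizontal axis), with 95% confidence intervals from limma. Filled points have an adjusted p below 0.1. Gsr, Gclm and Keap1 lie between 0.22 and 0.24, and the other 6 between -0.11 and 0.06.

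The neighbourhood of the pathway was described with 111 further genes in 8 lists by role. Of these, 85 had a mean of at least 1 FPKM, of which 21 were called higher and 17 lower in M8 by the same limma fit, with a median log2 fold change of -0.01. These counts, and those of the single lists, stand beside 21.2% higher and 16.5% lower over all genes tested. The balance depended on scaling, at 15 higher and 20 lower as TPM, 11 and 23 with quantile normalization and 12 and 23 with upper-quartile scaling. Among regulators, 4 of 13 were higher and 1 lower, and the 4 became 1 to 2 without M8 replicate 1 or 2 or parental replicate 1 or 2, and 0 without the filter on low values. The fourth, Maff, had overlapping groups and lost its call under 10 of 16 alternatives. Mafk, a small Maf partner of Nrf2, rose from 20.7 ± 0.762 to 24.7 ± 1.81 FPKM (log2 fold change 0.24, limma adjusted p = 0.0152). Rbx1, the RING subunit of the Cul3 ligase, rose from 60.5 ± 5.48 to 69.9 ± 2.45 FPKM (0.21, adjusted p = 0.0365), and Pgam5, a mitochondrial phosphatase that binds Keap1, by 0.14 (adjusted p = 0.0521). Nfe2l1, a relative of Nfe2l2 known for its control of proteasome genes, fell by 0.11 on the log2 scale (adjusted p = 0.0502). The call of Rbx1 was lost without M8 replicate 2 (adjusted p = 0.118), that of Pgam5 without M8 replicate 1 or 2 or parental replicate 1 or 2 (0.112 to 0.165), and that of Nfe2l1 without any M8 replicate or parental replicate 2 or 3 (0.104 to 0.142). With quantile normalization Rbx1 (0.127) and Pgam5 (0.231) were not called, Pgam5 also missed the threshold as TPM (0.109) and with upper-quartile scaling (0.199), and without the filter Mafk, Rbx1 and Pgam5 were not called (0.125 to 0.246).

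In the list of glutathione synthesis and peroxidases, 4 of 12 were higher and 1 lower, and the 4 became 2 without M8 replicate 1, with quantile normalization or without the filter. One of the 4, Gpx1, was not called without any M8 replicate or parental replicate 1 (adjusted p 0.116 to 0.150) and under 4 other settings (0.109 to 0.429). Slc3a2, the heavy chain of the cystine transporter, rose from 164 ± 3.75 to 217 ± 1.98 FPKM, the largest log2 fold change called higher in the 8 lists (0.40, limma adjusted p = 0.000206). It also serves several other amino acid transporters. The ranking holds on the log2(FPKM + 1) scale. The ratio of mean FPKM of Slc3a2, 1.32, was below those of Abcb6 (1.35), Akr1c13 (1.34) and Slc7a11 (1.34), which were also called higher. Slc7a11, the light chain that gives the transporter its cystine specificity, was far less abundant and rose from 2.49 ± 0.442 to 3.34 ± 0.0831 FPKM (0.32, adjusted p = 0.0407), a call lost without M8 replicate 1 (adjusted p = 0.116) or parental replicate 2 (0.129). Gpx4, which reduces lipid peroxides, rose by 0.17 (adjusted p = 0.0122). Ggt1, a surface enzyme that breaks down extracellular glutathione, fell from 12.9 ± 0.662 to 8.54 ± 0.888 FPKM (-0.55, adjusted p = 0.00128). Gpx4 was not called with quantile normalization (adjusted p = 0.116), nor Slc7a11 without the filter (0.201). The median of the list was -0.06.

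Thioredoxins and peroxiredoxins had 5 of 14 higher and 1 lower, with a median of 0.07, and the 5 became 3 without M8 replicate 1 or 2 and 2 with quantile normalization. Among the 5, Prdx5 lost its call under 8 of 16 alternatives, which include leaving out M8 replicate 1 or 2 or parental replicate 1 or 3 (adjusted p 0.103 to 0.169), and Txnrd2 without M8 replicate 1 (0.112) and without the filter (0.247). Sesn2, a stress-responsive regulator of mTORC1, rose from 30.9 ± 2.34 to 38.6 ± 1.37 FPKM (0.31, limma adjusted p = 0.00486). Txn1, the substrate of Txnrd1, rose by 0.17 (adjusted p = 0.0122) and the mitochondrial peroxiredoxin Prdx3 by 0.14 (adjusted p = 0.0262). Msrb1, a methionine sulfoxide reductase, fell by 0.18 (adjusted p = 0.0209). The call of Prdx3 was lost without M8 replicate 2 (adjusted p = 0.102) and with upper-quartile scaling (0.131), and those of Txn1 (0.213) and Prdx3 (0.227) were lost with quantile normalization.

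Of 11 glutathione S-transferases tested, Mgst2 and Gsto1 were higher and Gsta4 and Gsto2 lower, and the median was -0.10. Mgst2 rose from 30.8 ± 0.863 to 37.5 ± 1.58 FPKM (0.27, limma adjusted p = 0.00320) and Gsto1 by 0.11 (adjusted p = 0.0438). Gsta4, which conjugates the lipid aldehyde 4-hydroxynonenal, fell from 18.7 ± 1.25 to 13.9 ± 0.680 FPKM (-0.40, adjusted p = 0.00201). Gsto2 fell from 5.69 ± 0.596 to 4.05 ± 0.589 FPKM (-0.41, adjusted p = 0.0143). The call of Gsto1 was lost without M8 replicate 1 (adjusted p = 0.132) or 2 (0.158) and under TPM, upper-quartile or quantile scaling (0.126 to 0.835), and that of Gsto2 without the filter (0.146). Transferases of one class are close copies of each other, and reads may have been divided between them.

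The list with most genes called lower was quinone and aldehyde detoxification and export, with 7 of 13 lower, 2 higher and a median of -0.20. Aldh3a1, an aldehyde dehydrogenase, fell from 13.6 ± 2.39 to 7.47 ± 0.326 FPKM (-0.78, limma adjusted p = 0.00121). Abcc4, an exporter of organic anions, fell from 25.1 ± 1.73 to 17.97 ± 0.678 FPKM (-0.46, adjusted p = 0.000950), and Ephx1, the microsomal epoxide hydrolase, from 228 ± 17.0 to 170 ± 3.81 FPKM (-0.42, adjusted p = 0.00104). Nqo2, Ugt1a6a, Abcc1 and Akr1b8 completed the 7, and all but Akr1b8 kept their call with any single replicate left out. Akr1b8 lost it without M8 replicate 2 or 3 or parental replicate 3 (adjusted p 0.115 to 0.145) and without the filter (0.302). Ugdh, which makes UDP-glucuronate, rose by 0.18 (adjusted p = 0.0296), a call lost with quantile normalization (0.124) and without the filter (0.182). Akr1c13 rose by 0.34 (adjusted p = 0.0876). The rise became 0.20 without M8 replicate 1, 0.23 without parental replicate 2 and 0.35 without parental replicate 1, and in these fits the call was lost (adjusted p 0.135 to 0.281). It was also lost as TPM, with upper-quartile scaling, without the eBayes trend and without the filter (0.106 to 0.433). Akr1b3 was listed at 0 in M8 replicate 3 and at 6.83 and 3.90 FPKM in the other M8 samples, and was not called.

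The NADPH supply genes other than G6pdx were mostly not called, with 2 of 10 higher, 1 lower and a median of 0.00. Pgls, the enzyme after G6pdx in the pentose phosphate pathway, rose from 120 ± 9.31 to 140 ± 5.60 FPKM (0.23, limma adjusted p = 0.0168), and Rpia, which interconverts pentose phosphates, by 0.15 (adjusted p = 0.0557). The call of Rpia was lost without M8 replicate 1 or 3 or parental replicate 1 or 3 (adjusted p 0.1004 to 0.154) and as TPM, with upper-quartile scaling and without the filter (0.129 to 0.199), and that of Pgls without the filter (0.160). Me1, malic enzyme, fell from 41.2 ± 1.95 to 36.2 ± 0.814 FPKM (-0.18, adjusted p = 0.0197).

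Heme and iron genes had 2 of 8 higher and 3 lower. Abcb6, a porphyrin transporter, rose from 7.45 ± 0.819 to 10.04 ± 0.707 FPKM (0.39, limma adjusted p = 0.00787), and ferritin heavy chain Fth1 by 0.13 (adjusted p = 0.0743). Slc48a1, a heme transporter, fell by 0.23 (adjusted p = 0.00464), Blvra, biliverdin reductase, by 0.21 (adjusted p = 0.0329) and Hmox2, the constitutive heme oxygenase, by 0.20 (adjusted p = 0.0665). The call of Fth1 was lost without any M8 replicate or parental replicate 3 (adjusted p 0.121 to 0.264), with the replicate number as a block (0.143), and as TPM, with upper-quartile scaling, without the eBayes trend and without the filter (0.101 to 0.560). Hmox2 was not called without M8 replicate 1 or 3 or parental replicate 2 or 3 (0.118 to 0.220), without the trend (0.103) and without the filter (0.342). Without the filter Abcb6 (0.108) and Blvra (0.183) also missed the threshold. Among 4 superoxide and catalase enzymes, Sod2, the mitochondrial superoxide dismutase, fell from 15.9 ± 0.734 to 14.0 ± 0.209 FPKM (-0.16, adjusted p = 0.0388), a call lost without M8 replicate 1 (0.116), and none was called higher.

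**Figure D4:**
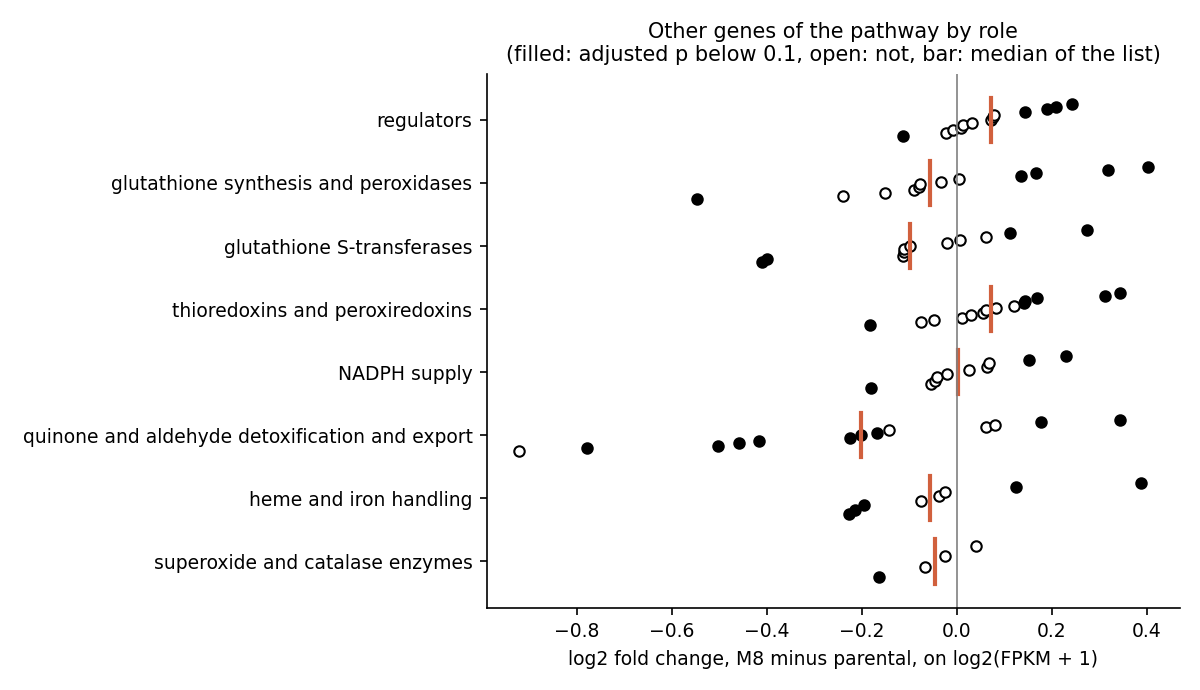
Log2 fold change, M8 minus parental on log2(FPKM + 1) (horizontal axis), of the 85 tested genes of the 8 lists (rows). Filled points have a limma adjusted p below 0.1, the orange bar is the median of a list, and the small vertical offsets only separate the points. The medians run from -0.20 for quinone and aldehyde detoxification and export to 0.07 for regulators and for thioredoxins and peroxiredoxins.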

How the data were processed

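RNA was sequenced from 3 parental and 3 M8 samples. Single reads of 101 bases were aligned by the authors with TopHat to the mm10 build. The deposited values are FPKM from Cufflinks, 1 table of 24346 symbols per sample. The submitters' processing notes list TopHat2 2.1.1, Bowtie2 2.2.8, SAMtools 0.1.18 and Cuffdiff 2.2.1. The annotation and any filter on low values are not given in the sources used here. FPKM values are not counts, so the authors' count-based test was not repeated.

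FPKM values were used as deposited. Genes with a mean of at least 1 FPKM were tested in R 4.3.3 with limma 3.58.1, using lmFit and eBayes with a trend, on log2(FPKM + 1), without covariates, with Benjamini-Hochberg adjustment and a threshold of 0.1. The fit was also run on simulated data, whose outcome is not reported here and is not used for any result. Single values were also compared with exact two-sided permutation tests (SciPy 1.17.1). Relative depth was taken from the most common ratio of FPKM values between a sample and parental replicate 1. It used genes below 0.5 FPKM in every sample, where a read is a whole step. Gene positions come from RefSeq on GRCm38, matched by symbol.

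All 10 members were named. From each wider list, up to 3 genes in each direction with the smallest adjusted p among those called were named. Txnrd2, Prdx5, Gpx1 and Maff were also called higher. Nqo2, Ugt1a6a, Abcc1, Akr1b8 and Akr1b3 were named after their values were seen. The members and lists were chosen with earlier results of these data known. Alternatives were other pseudocounts, filters, scalings, variance models, thresholds, a replicate block and leaving out each sample.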

Additional observations from a re-analysis of the deposited data

How the results depend on the processing

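The 9 tested members gave 162 values under the alternatives, of which 139 kept their direction and their side of the threshold, 12 lost the call, 7 gained one and 4 changed sign. The alternatives of a threshold of 0.05 and of a fold change of at least 1.2 reuse the values of the main fit. Under both, members that were not called could only stay the same. Keap1, Gclm and Gsr were called higher under every alternative except a required fold change of at least 1.2, under which no member was called (0 higher, 0 lower). Without 1 replicate their log2 fold changes ranged from 0.18 to 0.25, 0.20 to 0.24 and 0.22 to 0.26. G6pdx, the single member called lower, was lost without the eBayes trend, at a threshold of 0.05 and with the replicate block (0 members lower each), and 0 to 1 members were lower when 1 replicate was left out (without parental replicate 2 it was Gclc). With Gclc added, 2 members were lower as TPM, with a mean of at least 5 FPKM, with median centring and with upper-quartile scaling, and 3 with quantile normalization, where Txnrd1 joined (log2 fold change -0.12, limma adjusted p = 0.0751). The changes of sign were small and none was called. They were -0.025 for Nfe2l2 and -0.018 for Hmox1 with quantile normalization, -0.0071 for Hmox1 with upper-quartile scaling, and 0.012 for Srxn1 without M8 replicate 3 (range -0.051 to 0.012 without 1 replicate). The cause of these changes was not tested.

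Over all genes, 2250 were higher and 1745 lower. These became 1284 and 898 with no filter, 1470 and 2769 with upper-quartile scaling, 804 and 775 with a fold change of at least 1.2, and 1609 to 2101 and 1157 to 1672 without 1 replicate, lowest without M8 replicate 1 for genes called lower. Of the genes in the 8 lists, 21 were higher, which became 7 with no filter, 11 with quantile normalization, 12 with upper-quartile scaling, 7 with a fold change of at least 1.2 and 11 to 18 without 1 replicate (11 without M8 replicate 1 and 13 without M8 replicate 2). The 17 lower became 20 as TPM, 23 with quantile normalization, 23 with upper-quartile scaling, 7 with a fold change of at least 1.2 and 14 to 18 without 1 replicate. The log2 difference of the Nfe2l2 to Keap1 ratio ranged from -0.20 to -0.12 and that of Gclc to Gclm from -0.37 to -0.34 without 1 replicate. The labels do not say whether replicate numbers pair the samples. Deviations of same-numbered samples correlated at 0.10, -0.106 and -0.0326, and those of the other pairs at -0.128 to 0.181. With 3 samples in each group, these values cannot decide whether samples of a number were handled together. With the number as a replicate block 2171 genes were higher and 1688 lower, and 20 and 18 genes of the lists.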
